A study of Nannospalax ehrenbergi and Mus musculus with 25 samples.

Results

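The genes described here are Cish and Socs1 to Socs7, the cytokine-inducible SH2 protein and the suppressors of cytokine signaling, in RNA-Seq of the blind mole rat Spalax and of mice. The 8 genes were chosen by name as one family, at a time when their values in all 25 libraries were already known, so every difference of theirs below describes these libraries and a small p-value does not count as independent support. All 8 were found in both tables, among 27988 genes of Spalax and 47593 of mouse, of which 14769 shared a symbol.

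SOCS proteins close a feedback loop. A cytokine or hormone receptor activates a JAK kinase and a STAT transcription factor, the STAT switches on Cish or a Socs gene, and the protein made then blocks the kinase or covers the receptor. Each of the 8 proteins carries an SH2 domain, which binds phosphotyrosine, and a SOCS box, which recruits a ubiquitin ligase that marks bound proteins for degradation. In skeletal muscle, growth hormone, interleukin 6 and leptin are among the signals that this loop restrains.

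Animals received 3-methylcholanthrene (3MCA), a carcinogen that damages DNA, under the skin of the left flank of the neck. In animals with a tumor IS, the injected side, is the tumor, and UIS, the side without an injection, is neck muscle taken from the same animal. Spalax were caught in the wild, so their age is not known exactly. The paper estimates about 2 to over 10 years for the treated Spalax and gives no estimate for the controls. Treated Spalax received 1 mg in 500 µl. The mice were male C57BL/6 of 3 to 4 months, and the treated ones received 200 µg in 200 µl. The 16 Spalax libraries are 4 untreated controls (all female), 4 from the injected side of tolerant animals that grew no tumor by 18 or 30 months (3 males, 1 female), 2 granuloma UIS and 2 granuloma IS (animals 600 and 976, both female, at 14 and 16 months), and 2 fibrosarcoma UIS and 2 fibrosarcoma IS (female 2240 at 18 months and male 2230 at 30 months). The 9 mouse libraries are 3 untreated controls (M1, M2 and M5), 3 UIS and 3 IS of fibrosarcoma (animals 1019, 1023 and 512, at 14, 12 and 11 weeks). A granuloma is the benign growth and a fibrosarcoma the malignant one. Each animal gave at most 1 library per side, and wild Spalax are not an inbred strain, so age and genotype vary within its groups. Sex varies within the tolerant and the fibrosarcoma group only. It also differs between groups, so in control against tolerant Spalax sex is mixed with the treatment.

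Libraries held 17025447 to 23386729 reads in Spalax and 22143060 to 31179183 in mouse. A value below is a normalised read count, the number of reads divided by 1 size factor per library. In Spalax and in mouse, control and tolerant libraries carried a dual index and those of tumor-bearing animals a single one, and control Spalax gave a biopsy and recovered while tumor-bearing animals were killed, so these circumstances cannot be told apart from bearing a tumor. The labels of the library granuloma UIS 976 name a second animal number. The changes of Cish, Socs1, Socs2 and Socs7 in which it weighs, and the granuloma changes of Socs3 and Socs4, are therefore also given without it.

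The tissue of the 2 sides was not alike. All 7 skeletal muscle markers, among them Ckm and Acta1, fell from UIS to IS in granuloma, in Spalax fibrosarcoma and in mouse fibrosarcoma, and none of the 7 was at 0 in a whole group. Their summed value was 1038580 to 2566020 in granuloma UIS against 366 to 4234 in IS, 2477630 to 2801170 against 195 to 203 in Spalax fibrosarcoma, and 1309440 to 2536130 against 178 to 72673 in mouse. The 6 fibroblast markers summed to 13681 to 18058 in granuloma UIS and 846279 to 1837030 in IS, with 22832 to 38682 and 113725 to 416765 in Spalax fibrosarcoma and 5019 to 29153 and 141126 to 164106 in mouse. The 7 macrophage markers summed to 1038 to 2754 and 8541 to 20343 in granuloma, 2029 to 2632 and 8974 to 33662 in Spalax fibrosarcoma, and 338 to 2920 and 2985 to 18225 in mouse. Sums hide single members of the fibroblast and macrophage lists. The log2 change was negative for Dcn in Spalax fibrosarcoma (-0.31) and Cd163 in mouse (-0.94), and positive for all others. It was small for Pdgfrb in Spalax fibrosarcoma (0.21) and Dcn in mouse (0.12), and limma called none of these named changes. Every IS against UIS difference of a SOCS gene is therefore one between tumor tissue and muscle, and in bulk RNA a change in the share of a cell type and a change in RNA per cell cannot be told apart. The part of these markers in the results was not tested.

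Calls were read from limma fits over all genes that passed a filter on low values, with 0.05 as the limit of the p-value after Benjamini-Hochberg adjustment, and all 8 genes passed the filter in every comparison. In granuloma IS against UIS, 1 of the 8 rose (Socs1) and 1 fell (Socs7), where 11.7% of all genes tested rose and 12.6% fell. In Spalax fibrosarcoma, 3 rose (Cish, Socs1 and Socs2) and 0 fell, where 17.4% of all genes rose and 19.0% fell. In mouse fibrosarcoma, 2 rose (Socs1 and Socs4) and 2 fell (Cish and Socs7), where 22.8% rose and 22.3% fell. With 8 genes, counts of this size are near the shares of all genes. Between control and tumor-bearing UIS Spalax, between control and tolerant Spalax, and between control and UIS mice, 0 of the 8 and 0.0% of all genes were called by limma. At an unadjusted p of 0.05 limma gave 3, 0 and 0 of the 8 (Cish, Socs3 and Socs6 in the first) and 2315, 733 and 1621 of all genes. In each of these comparisons edgeR called 0 of the 8. DESeq2 called 2, 0 and 0 of the 8, beside 3.71%, 0.428% and 2.31% of all genes.

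**Figure D1:**
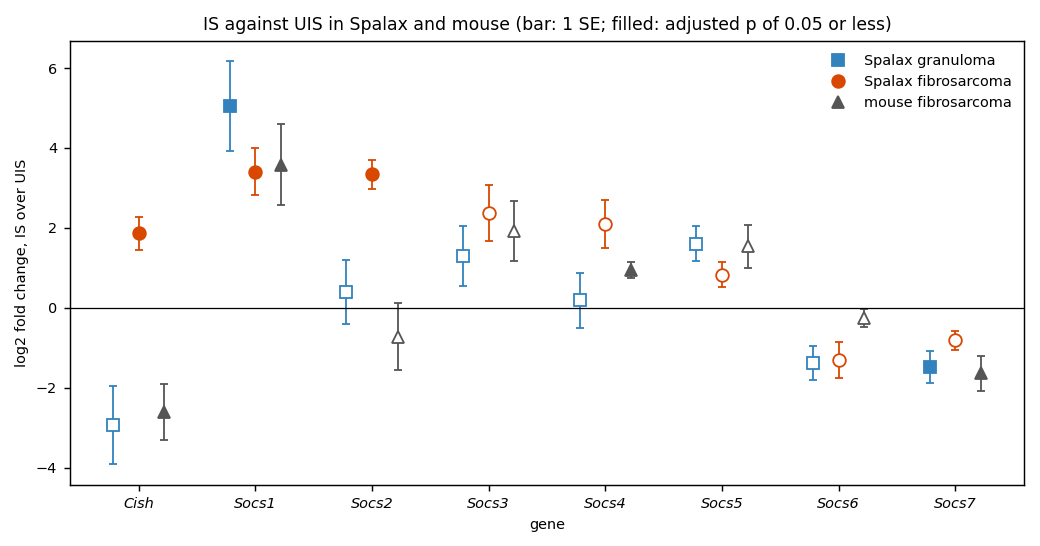
Log2 fold change of each gene from UIS to IS in the 3 tumor comparisons, on the log2(value + 1) scale of the limma fit. Symbols stand for granuloma, Spalax fibrosarcoma and mouse fibrosarcoma, bars for 1 SE, and filled symbols for an adjusted p of 0.05 or less. Socs1 lies above 0 in all 3 and Socs7 below 0 in all 3, while Cish lies above 0 in Spalax fibrosarcoma alone.

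The same tumor and uninjected side came from 1 animal, and fitting the animal as a block changed some calls. With the block, Cish was called lower in granuloma (adjusted p = 0.0158), a fit that has no form without UIS 976 since 1 pair would remain, and Socs7 was no longer called there (adjusted p = 0.0693), where the block called 21.1% of all genes. In Spalax fibrosarcoma the block also called Socs3 (adjusted p = 0.0197) and Socs4 (adjusted p = 0.0386), giving 5 of 8 genes against 33.2% of all. In mouse it also called Socs3 (adjusted p = 0.0156) and Socs5 (adjusted p = 0.0163), giving 6 of 8 against 44.1% of all.

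Scaling mattered as well. Scaling each library by its total reads in place of the deposited size factors raised the median log2 change of all genes from -0.01 to 0.74 in granuloma, from 0.03 to 0.86 in Spalax fibrosarcoma and from 0.11 to 1.21 in mouse. Under it 2 of the 8 genes rose and 0 fell in granuloma, 6 rose and 0 fell in Spalax fibrosarcoma, and 5 rose and 0 fell in mouse, beside 30.2%, 46.3% and 61.0% of all genes called in either direction. Over all genes, the split of higher to lower calls went from 1718 and 1863 to 3409 and 1122 in granuloma, from 2550 and 2789 to 5285 and 1654 in Spalax fibrosarcoma, and from 3469 and 3401 to 7879 and 1624 in mouse. Falls of Cish, Socs6 and Socs7 below are thus falls relative to the bulk of genes.

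**Figure D2:**
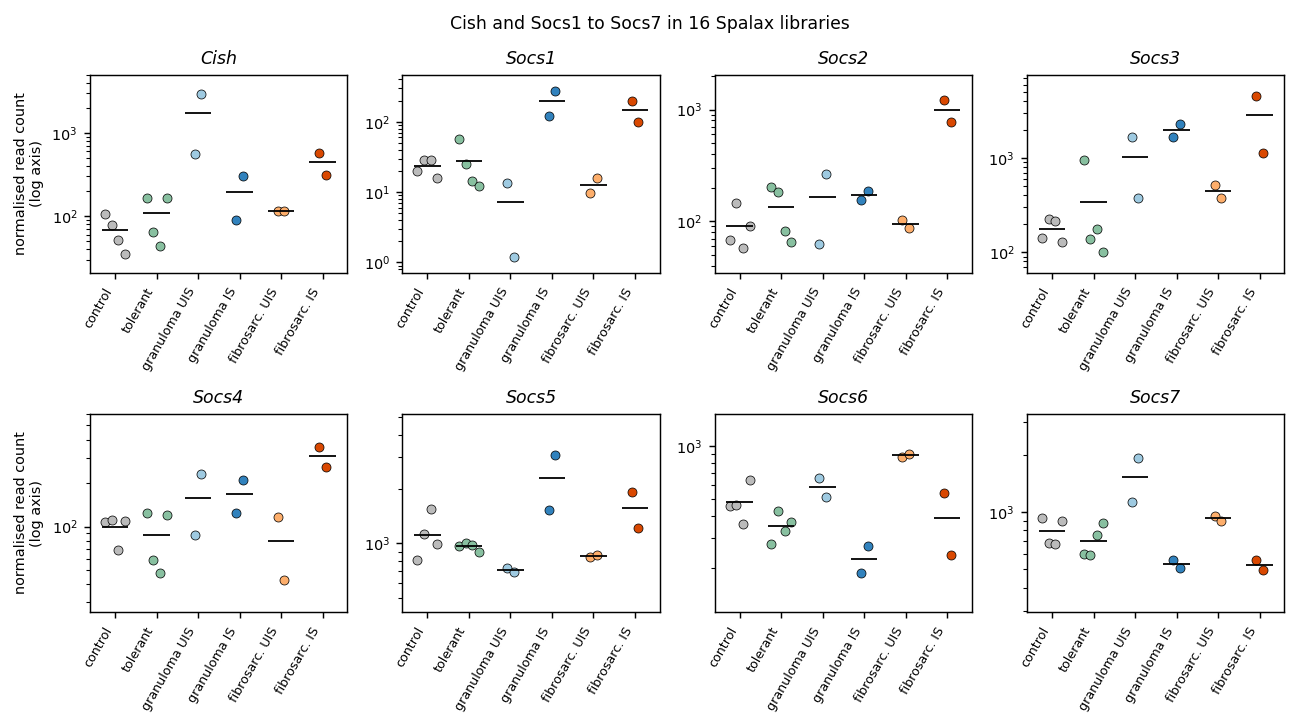
Normalised read count (log axis) of the 8 genes in the 16 Spalax libraries, by group. Each point is 1 library and each line the mean of its group. Both fibrosarcoma IS libraries lie above every other library for Socs2 and Socs4, and both granuloma UIS libraries lie above every other group's UIS or control library for Cish.

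Cish and Socs2 are the members best known as targets of STAT5, the factor downstream of the growth hormone, prolactin, erythropoietin and interleukin 2 receptors. Cish binds activated receptors of this kind and is known as a brake on T and natural killer cells. In the mouse it lies at chr9:107296026-107302784 on the plus strand (GRCm38, GENCODE vM21), and 11.5% of its exon bases lie under a gene on the opposite strand, so that reads of the 2 could mix where strand was not used in counting.

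In control Spalax, Cish stood at 107, 78.2, 51.1 and 34.8 in animals 1042, 1075, 2095 and 6038. The tolerant animals 2251, 2261, 2218 and 2375 had 164, 64.6, 43.6 and 168. These 2 groups overlapped, and the log2 difference of tolerant against control was 0.59 (SE 0.52, adjusted p = 0.923).

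In fibrosarcoma UIS, Cish was 115 in animal 2240 and 117 in animal 2230, and in the tumors of the same animals it was 573 and 312. Both tumors were thus above both uninjected sides, by a log2 change of 1.86 (SE 0.42, limma, adjusted p = 0.0311), a call that was lost in the model over all libraries (SE 0.86, adjusted p = 0.0964). The 2 animals with granuloma went the other way: Cish was 554 and 2946 in the UIS of animals 600 and 976 and 89.3 and 306 in their IS. The log2 change was -2.94 (SE 0.98, adjusted p = 0.0829) without the block, and -1.74 (SE 0.96, adjusted p = 0.306) without UIS 976.

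Mouse tumors also had less Cish than the uninjected side. In the UIS of animals 1019, 1023 and 512 it was 464, 967 and 249, against 159, 83.0 and 35.8 in the IS. No value of one side reached the other, and the log2 change was -2.61 (SE 0.70, limma, adjusted p = 0.0244). Limma called it in 2 of 6 fits that left out 1 library, those without IS 1019 and without UIS 512 (adjusted p = 0.0228 to 0.0786 over the 6). Control mice had 209, 2472 and 390 in M1, M2 and M5, so M2 stood above every other mouse library and the control group spanned the UIS values. Under total-read scaling the mouse change kept its sign at -1.55 (SE 0.79) but was not called (adjusted p = 0.128), and the Spalax fibrosarcoma change was 2.66 (SE 0.41, adjusted p = 0.0110).

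**Figure D3:**
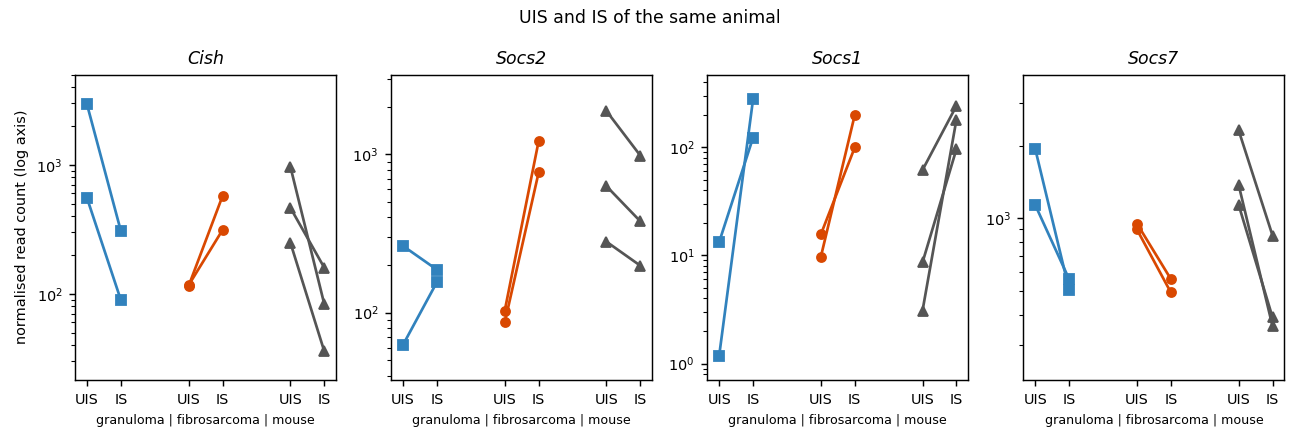
Normalised read count (log axis) in the UIS and the IS of the same animal for Cish, Socs2, Socs1 and Socs7. Lines join the 2 libraries of 1 animal, for 2 granulomas, 2 Spalax fibrosarcomas and 3 mouse fibrosarcomas. Cish goes down in 2 granulomas and 3 mice and up in 2 Spalax fibrosarcomas, while Socs1 goes up and Socs7 goes down in every animal.

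The uninjected sides of the 2 granuloma animals are the highest Cish values in Spalax apart from the tumor of animal 2240. Pooled, tumor-bearing UIS ranged from 115 to 2946 with a median of 335, and all 4 lay above all 4 controls. The log2 difference from control was 2.61 (SE 0.94, adjusted p = 0.243), and 1.63 to 3.19 on leaving out single libraries, with the lowest value without UIS 976. DESeq2 on the recovered reads called it (log2 change 3.82, SE 1.07, adjusted p = 0.0183) among 3.71% of all genes, and without UIS 976 it called a change of 1.96 (SE 0.59, adjusted p = 0.0251) among 5.44%. The neutrophil sum adds 4 markers in Spalax and 5 in mouse, among them S100a8 and S100a9. UIS 976 and UIS 600 had neutrophil sums of 867 and 2604, against 144 and 218 in the fibrosarcoma UIS and 45.8 to 144 in controls. Tolerant animals ran from 25.5 to 880, and animal 2261, the one at 880, had a Cish of 64.6. The granulomas of animals 600 and 976, with Cish of 89.3 and 306, had sums of 6361 and 4561. A link between Cish and the neutrophil sum was not tested.

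Socs2 is the chief brake on the growth hormone receptor, and mice without it grow large. It lies at chr10:95385362-95417180 on the minus strand in the mouse. In Spalax it was 67.4, 145, 57.4 and 91.5 in controls 1042, 1075, 2095 and 6038 and 202, 184, 82.0 and 65.7 in tolerant animals 2251, 2261, 2218 and 2375, which overlapped. Fibrosarcoma UIS held 103 and 86.7 in animals 2240 and 2230 and their tumors 1213 and 769. Those 2 tumors had the highest Socs2 of the 16 Spalax libraries, with a log2 change of 3.34 (SE 0.36, limma, adjusted p = 0.00645).

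In granuloma, Socs2 was 62.7 and 264 in the UIS of animals 600 and 976 and 156 and 187 in their IS, so the IS values lay between the UIS values, with a log2 change of 0.40 (SE 0.80, adjusted p = 0.737), or 1.43 (SE 0.49, adjusted p = 0.173) without UIS 976. In mouse, UIS of 1019, 1023 and 512 gave 281, 629 and 1876 and IS gave 198, 377 and 981. Within each mouse the tumor was lower, yet the sides overlapped, and the log2 change was -0.72 (SE 0.83, adjusted p = 0.508), which became 0.34 under total-read scaling. Control mice had 486, 1053 and 235, which overlapped the UIS values, with M5 below the lowest of them.

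Whether the change from UIS to IS differed between tumors was tested as a term of its own. Between Spalax and mouse fibrosarcoma the Cish change differed by 4.47 on the log2 scale (SE 1.01, limma, adjusted p = 0.0435), where 2.25% of the 12816 genes shared and tested were called in that direction and 2.29% in the other. Cish was the 1 member called. That call was lost with the animal as a block (adjusted p = 0.0629), under total-read scaling (0.0657) and with edgeR (0.0582), and it was held in 2 of 10 fits that left out 1 library, those without mouse IS 1019 and without mouse UIS 512. The Cish difference itself stayed between 3.92 and 4.98 in those 10 fits.

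Socs2 differed between the species by 4.06 (SE 1.16, adjusted p = 0.0821), and was the 1 member called with the block (adjusted p = 0.0439), which called 0.757% of all genes. Between Spalax fibrosarcoma and granuloma the Cish change differed by 4.80 (SE 1.23, unadjusted p = 0.00539 from limma, adjusted p = 0.946) and that of Socs2 by 2.94 (SE 0.94, adjusted p = 0.946), and 0.0% of all genes were called by limma, with 2 of the 8 and 766 of all at an unadjusted p of 0.05 and 0 of the 8 by edgeR. DESeq2 called Cish there (adjusted p = 0.0117) among 0.565% of all genes. Without UIS 976 the Cish difference was 3.59 by limma (SE 1.02, adjusted p = 0.999) and 3.42 by DESeq2 (SE 1.11, adjusted p = 0.203), so the DESeq2 call was lost without that library, and the Socs2 difference was 1.91 by limma (SE 0.58, adjusted p = 0.999). Each of the other 6 genes had an adjusted p of at least 0.235 in both tests by limma.

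Socs1 and Socs3 carry a short region that blocks the JAK kinase itself, which makes them the strongest inhibitors of the family. Socs1 is the main brake on interferon gamma. It is at chr16:10782240-10785536 and Socs3 at chr11:117966079-117970047, both on the minus strand in the mouse.

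For Socs1, control Spalax had 19.9, 28.8, 28.7 and 15.9 and tolerant animals 57.1, 25.2, 14.5 and 12.1, in the order of animals given above. UIS values were lower: 13.3 and 1.18 in granuloma animals 600 and 976, the latter a single read, and 9.70 and 15.6 in fibrosarcoma animals 2240 and 2230. All 4 lay below all 4 controls, with a log2 difference of -1.45 (SE 0.66, adjusted p = 0.305), or -0.79 (SE 0.42, adjusted p = 0.360) without UIS 976. At such depth, 1 to 11 reads in the 4 UIS libraries, counting error alone is large.

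The tumors held 123 and 277 in granuloma and 199 and 99.5 in fibrosarcoma, each far above its own uninjected side. Socs1 rose by a log2 change of 5.06 in granuloma (SE 1.12, limma, adjusted p = 0.0320) and of 3.41 in fibrosarcoma (SE 0.59, limma, adjusted p = 0.0167). Without UIS 976 the granuloma change was 3.70 (SE 0.81, adjusted p = 0.0993). In mouse UIS it was 61.7, 3.09 and 8.64 in animals 1019, 1023 and 512, the last 2 resting on 3 and 6 reads, and in IS 242, 180 and 96.3. The groups stood apart, with a log2 change of 3.59 (SE 1.02, limma, adjusted p = 0.0293), and control mice had 16.3, 85.4 and 12.8. Socs1 is the member that limma called higher in all 3 tumor comparisons, under the deposited scaling and under total-read scaling. By edgeR it was not called in granuloma (adjusted p = 0.0515) or in mouse (adjusted p = 0.0729), and limma did not call it in mouse in 4 of 6 fits that left out 1 library, those without IS 1019, UIS 1023, IS 1023 or UIS 512 (adjusted p = 0.0751 to 0.0889).

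Socs3 limits signaling through gp130, the shared chain of the interleukin 6 family, and through the leptin and G-CSF receptors. Control Spalax had 142, 227, 215 and 127. Among the tolerant animals, 2251 had 959 and the other 3 had 101 to 175. The same library had the highest macrophage sum of the tolerant group (12652, against 949 as the lowest), the highest fibroblast sum (171971 against 7591) and the lowest skeletal muscle sum (1000620 against 3006450 as the highest). Without animal 2251 the log2 difference of tolerant from control went from 0.35 to -0.36, and neither was called.

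In all 4 tumor-bearing UIS Socs3 was above every control: 1688 and 373 in granuloma animals 600 and 976, and 513 and 374 in fibrosarcoma animals 2240 and 2230. The log2 difference was 1.77 (SE 0.47, adjusted p = 0.192). It was 1.26 to 1.99 on leaving out single libraries, and DESeq2 called it (log2 change 2.07, SE 0.51, adjusted p = 0.00494). UIS 600, the library with the most Socs3 among them, also had the highest neutrophil sum outside the tumors in Spalax, as given above with Cish. Tolerant animal 2261, with a neutrophil sum of 880, had a Socs3 of 138.

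The tumors had Socs3 of 1678 and 2281 in granuloma of animals 600 and 976, and of 4515 and 1141 in fibrosarcoma of animals 2240 and 2230. The granuloma of animal 600 was close to its own UIS, and the granuloma change was 1.30 (SE 0.74, adjusted p = 0.245). The 2 fibrosarcomas were above both of their uninjected sides, with a log2 change of 2.37 (SE 0.71, adjusted p = 0.0608) without the block. Mouse UIS had 352, 743 and 104 and IS 1073, 1994 and 699, higher in each of the 3 animals though the highest UIS overlapped the lowest IS, with a log2 change of 1.92 (SE 0.76, adjusted p = 0.0778) without the block. Control mice had 316, 455 and 203. UIS 1023, with the most Socs3 and Cish of the mouse UIS, had a neutrophil sum of 14071. The sum was 184 and 294 in the UIS of animals 1019 and 512, of which 512 had the lower Socs3, and 29.8 to 50.2 in controls. Control M2, with the highest Cish of the mouse libraries, had a neutrophil sum of 50.2. IS 1023, with the highest Socs3 of the mouse libraries, had a sum of 1304. A link between Socs3 and the neutrophil sum was not tested in either species.

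Socs4 and Socs5 are close relatives with long N-terminal regions, and both are known to limit signaling by the EGF receptor. They lie at chr14:47276931-47296102 and chr17:87107679-87137839, on the plus strand. Socs4 was 107, 111, 68.6 and 109 in control Spalax and 125, 59.1, 47.6 and 121 in tolerant ones. In fibrosarcoma UIS it was 116 and 42.6 and in the tumors 354 and 260, for animals 2240 and 2230, above every other Spalax library. The log2 change was 2.09 (SE 0.60, adjusted p = 0.0559) without the block.

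In granuloma Socs4 was 86.8 and 231 in UIS and 125 and 210 in IS, which overlapped (log2 change 0.19, SE 0.68, adjusted p = 0.858). In mouse Socs4 was the steadiest of the family: 564, 557 and 533 in UIS against 974, 1114 and 1082 in IS. The log2 change was 0.94 (SE 0.20, limma, adjusted p = 0.0111), and it was called in 5 of 6 fits that left out 1 library, all but the one without mouse IS 1023. Control mice had 692, 398 and 726.

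For Socs5, control Spalax had 809, 1128, 1542 and 997 and tolerant animals 968, 1011, 981 and 899. UIS values were 732 and 693 in granuloma animals and 844 and 867 in fibrosarcoma animals, against 1529 and 3068 and 1917 and 1211 in the tumors. All 4 tumors exceeded all 4 uninjected sides, with log2 changes of 1.60 in granuloma (SE 0.43, adjusted p = 0.0510) and 0.83 in fibrosarcoma (SE 0.30, adjusted p = 0.0959). In mouse, UIS had 862, 549 and 291 and IS 1835, 2314 and 806, higher in each animal, with a change of 1.54 (SE 0.54, adjusted p = 0.0553) without the block. Control mice had 904, 584 and 764.

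**Figure D4:**
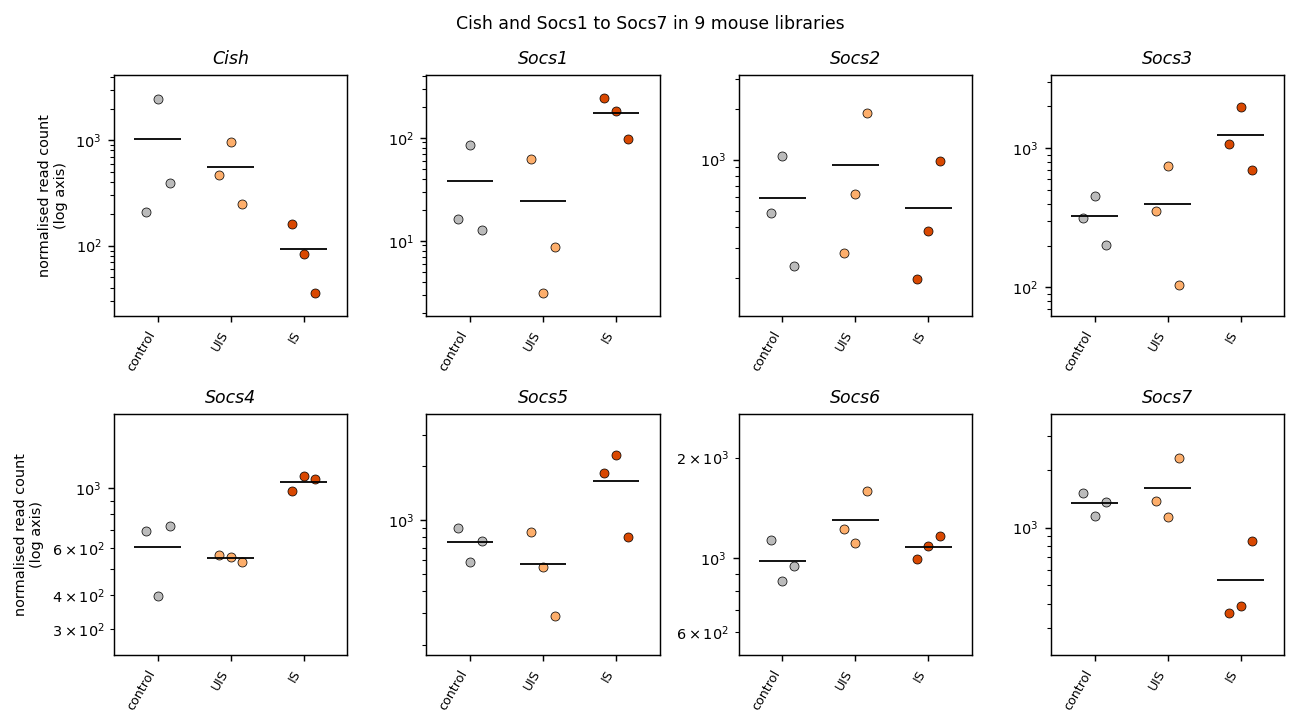
Normalised read count (log axis) of the 8 genes in the 9 mouse libraries, by group. Each point is 1 library and each line the mean of its group. The 3 IS libraries lie above all UIS and control libraries for Socs1 and Socs4 and below all of them for Cish and Socs7.

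Socs6 and Socs7 are known less for cytokine feedback than for binding insulin receptor substrates and, for Socs6, the KIT receptor. Socs7 is at chr11:97362551-97398542 on the plus strand in the mouse. Both had negative log2 changes from UIS to IS in all 3 tumor comparisons under the deposited scaling. Socs6 was 454, 464, 358 and 646 in control Spalax and 278, 426, 327 and 371 in tolerant ones. Granuloma UIS had 660 and 515 and IS 187 and 269, and fibrosarcoma UIS had 874 and 904 and IS 541 and 240. Both tumor types lay below their uninjected sides, with log2 changes of -1.37 (SE 0.42, adjusted p = 0.0692) and -1.30 (SE 0.45, adjusted p = 0.0862), neither called. In mouse, UIS of 1219, 1108 and 1589 and IS of 991, 1086 and 1165 overlapped (log2 change -0.26, SE 0.23, adjusted p = 0.383), and total-read scaling turned this into a rise of 0.81 (SE 0.18, limma, adjusted p = 0.00879). The direction of Socs6 in mouse tumors thus hangs on the scaling. Control mice had 1133, 854 and 947.

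Socs7 was 928, 685, 676 and 898 in control Spalax and 599, 591, 754 and 871 in tolerant ones. In granuloma it fell from 1136 and 1937 in UIS to 560 and 508 in IS (log2 change -1.47, SE 0.40, limma, adjusted p = 0.0499), a call at the very edge of the threshold, and the change was -1.09 (SE 0.28, adjusted p = 0.119) without UIS 976. Spalax fibrosarcomas had 561 and 494 against 952 and 900 in UIS (log2 change -0.81, SE 0.23, adjusted p = 0.0548). Socs7 fell in mouse as well, from 1376, 1138 and 2312 in UIS to 358, 390 and 849 in IS (log2 change -1.64, SE 0.43, limma, adjusted p = 0.0227), while control mice had 1518, 1145 and 1357. Under total-read scaling these 3 changes were -0.74, -0.01 and -0.58, and 0 of them was called. On the deposited scale limma called the mouse fall of Socs7 in 3 of 6 fits that left out 1 library (adjusted p = 0.0126 to 0.0799).

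Read by whether libraries stood apart, 5 of the 8 genes separated granuloma IS from UIS, 8 of 8 separated Spalax fibrosarcoma IS from UIS and 4 of 8 did so in mouse. Over all genes tested those shares were 69.8%, 74.3% and 60.2%. Between controls and tumor-bearing UIS in Spalax 3 of 8 stood apart (Cish and Socs3 higher, Socs1 lower), where 12.7% of all genes did. For control against tolerant Spalax it was 0 of 8 beside 3.86% of all genes, and for control against UIS mice 0 of 8 beside 21.2%. Tumor-bearing UIS overlapped tolerant Spalax for Cish (115 to 2946 against 43.6 to 168). The same held for Socs3 (373 to 1688 against 101 to 959) and for Socs1 (1.18 to 15.6 against 12.1 to 57.1).

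Calls in the tumors changed when a library was left out, which also lowers the number of samples. In granuloma the calls were lost whichever library went, so the loss does not point at a single one. Leaving out any 1 of the 4 granuloma libraries, UIS 976 included, left 0 of the 8 genes called and 0 of all genes. In Spalax fibrosarcoma leaving out either UIS library also left 0 called among all genes, while leaving out IS 2240 or IS 2230 gave 6 and 7 of the 8, beside 51.4% and 47.0% of all genes. In mouse 0 of the 8 were called without IS 1023, where 26.9% of all genes were, 2 without IS 1019 (30.6% of all) and 2 without UIS 512 (45.7% of all).

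To compare the genes with each other, mouse reads were divided by exon length in kilobases and by the reads of the library in units of 1000000 (RPKM). Exon length is all exon bases annotated for a gene, not the length of 1 transcript. For Cish it was 6419 bases, most of its locus, and for Socs2 9531 bases. A length above that of the RNA present lowers a gene's level, so ranks between genes hang on the annotation. In UIS the highest mean level was 7.60 ± 1.69 for Socs7 and 5.28 ± 4.62 for Socs3 (SD, n = 3), and the lowest was 0.308 ± 0.420 for Socs1. In IS Socs3 led with 31.9 ± 15.8, followed by Socs5 with 19.1 ± 8.71 and Socs4 with 11.4 ± 0.229, while Cish was lowest with 1.09 ± 0.784 (SD, n = 3). Socs3 and Socs5 overlapped in range, and so did Socs5 and Socs4. By these lengths the order of the family differed between muscle and tumor: Cish was at 3.29 ± 2.47 in UIS, close to Socs2 at 3.20 ± 2.43, and Socs1 reached 4.45 ± 2.05 in IS (SD, n = 3).

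The partners of the family were read from lists made up with earlier results of these data known. Counts of each list stand beside shares of all genes called by limma. In granuloma 11.7% rose and 12.6% fell, in Spalax fibrosarcoma 17.4% and 19.0%, and in mouse 22.8% and 22.3%. Under total-read scaling 30.2%, 46.3% and 61.0% were called in either direction. No list was tested as a whole against these shares, and several counts below are near them. The JAK kinases and STAT factors carry the signal that SOCS proteins stop. Of 11 such genes tested in Spalax, 3 rose and 1 fell in granuloma and 4 rose and 1 fell in fibrosarcoma, and of 10 tested in mouse 1 rose and 2 fell. Stat5b, the factor that drives Cish and Socs2 in many tissues, fell in all 3, by a log2 change of -2.79 (SE 0.39) in granuloma, -1.70 (SE 0.33) in Spalax fibrosarcoma and -3.68 (SE 0.58) in mouse, and total-read scaling kept the calls in granuloma and mouse but left the Spalax fibrosarcoma change uncalled at -0.90 (adjusted p = 0.0855). Jak2, the kinase of the growth hormone and erythropoietin receptors, rose in granuloma (1.93, SE 0.46) and in Spalax fibrosarcoma (2.77, SE 0.44), and in mouse its change was -0.27 (SE 0.37, adjusted p = 0.574). Stat4 and Stat6, the factors of interleukin 12 and interleukin 4, also rose in both Spalax tumors, though Stat4 was not called in granuloma with the block (adjusted p = 0.0558).

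Among cytokine receptors, 5 of 21 tested rose and 3 fell in granuloma, 13 of 21 rose and 1 fell in Spalax fibrosarcoma, and 6 of 29 rose and 1 fell in mouse. The median log2 change was 2.87, 2.04 and 1.04, beside -0.01, 0.03 and 0.11 over all genes. Il21r, a receptor of T and B cells, rose in Spalax fibrosarcoma by 5.98 (SE 0.61) and in mouse by 3.51 (SE 1.07). Crlf2, the receptor for TSLP, rose in granuloma by 4.75 (SE 0.87) and in Spalax fibrosarcoma by 5.37 (SE 0.73). Il7r and Il2ra, both of which signal through STAT5, rose in Spalax fibrosarcoma by 4.73 (SE 0.75) and 4.39 (SE 1.00), and in granuloma and mouse neither was called.

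Cytokine ligands changed in both directions. Of 11 tested in granuloma 5 rose and 1 fell, of 11 in Spalax fibrosarcoma 6 rose and 2 fell, and of 14 in mouse 4 rose and 2 fell. Lif, a gp130 cytokine of the kind that induces Socs3, rose in all 3, by 5.36 (SE 1.01), 3.63 (SE 0.74) and 5.55 (SE 1.07). Osm and Il11, of the same receptor family, rose in granuloma (5.05 and 5.73) and in Spalax fibrosarcoma (5.91 and 5.86), and Csf3, which encodes G-CSF, rose in mouse by 4.79 (SE 1.24). The ligands that fell, named here after their values were seen, were Ctf1 (cardiotrophin 1, also a gp130 cytokine) in all 3, with log2 changes of -3.44 (SE 0.63), -4.31 (SE 0.47) and -2.53 (SE 0.42), Il15 in Spalax fibrosarcoma with -2.61 (SE 0.43) and Thpo, thrombopoietin, in mouse with -3.28 (SE 0.65).

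The SOCS box recruits a ubiquitin ligase built on the scaffold Cul5. Of 9 genes of this kind of complex tested, 0 rose in any of the 3, while 2 fell in granuloma, 4 in Spalax fibrosarcoma and 8 in mouse, with median log2 changes of -1.09, -1.06 and -1.14. Cul5 fell in all 3, by 1.90 in granuloma and 1.83 in Spalax fibrosarcoma on the log2 scale, and Rnf7, its RING subunit, fell by 2.88 in Spalax fibrosarcoma and 1.41 in mouse. Under total-read scaling 1, 2 and 0 genes of the list fell and 0 rose. Of the other SOCS box genes, 13 of 21 fell and 2 rose in granuloma, 14 of 22 fell and 1 rose in Spalax fibrosarcoma and 14 of 24 fell and 1 rose in mouse, and under total-read scaling 11, 12 and 10 fell and 3, 2 and 6 rose. The falls were led by Asb12, Asb11, Asb5 and Asb2, which are known from muscle. Their log2 changes were -6.29 to -11.6 in the 3 comparisons, and that of Asb5 in mouse was not called under total-read scaling (adjusted p = 0.0557).

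Of the other inhibitors of cytokine signaling, 1 of 12 rose in granuloma, 3 of 12 rose and 1 fell in Spalax fibrosarcoma, and 4 of 13 rose in mouse. Pias3, which binds STAT3, rose in all 3 by 1.80, 1.06 and 1.12, of which the Spalax fibrosarcoma call was lost with the block (adjusted p = 0.0786). Usp18, which limits type I interferon signaling, rose in mouse by 3.35 (SE 0.63), as did Cbl, a ubiquitin ligase for receptors, by 2.23 (SE 0.22). Ptprc, the leukocyte phosphatase CD45, rose in Spalax fibrosarcoma by 3.46 (SE 0.46).

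Genes switched on by STAT3 and STAT5 were split. Of 16 tested, 4 rose and 1 fell in granuloma and 7 rose and 1 fell in Spalax fibrosarcoma, and of 18 in mouse 5 rose and 4 fell. Ccnd1 (cyclin D1) and Timp1, an inhibitor of matrix proteases, rose in all 3, Ccnd1 by 6.14, 3.18 and 5.46 and Timp1 by 5.14, 3.66 and 5.48. Hp, the acute-phase protein haptoglobin, rose in Spalax fibrosarcoma by 3.49 (SE 0.25) and fell in mouse by 4.18 (SE 1.13), with a granuloma change of 1.64 (SE 0.74, adjusted p = 0.156). Lrg1, another acute-phase gene, fell in mouse by 3.38 (SE 0.92), though the mouse falls of Hp and Lrg1 were not called under total-read scaling (adjusted p = 0.0597 and 0.0778).

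Interferon response genes, the setting in which Socs1 is induced, rose in 0 of 8 tested in granuloma, 6 of 9 in Spalax fibrosarcoma and 11 of 14 in mouse. None of the list fell. Cxcl10, a chemokine for T cells, rose by 6.36 (SE 0.90) in Spalax fibrosarcoma and 4.77 (SE 0.93) in mouse, and its granuloma change was 3.91 (SE 2.55, adjusted p = 0.299). The antiviral genes Mx1 (4.64 and 4.78) and Ifit2 (4.17 and 3.05) rose in both fibrosarcomas, and Oas1a rose in mouse by 3.86 (SE 0.83). In granuloma the median log2 change of the list was 1.92, against -0.01 over all genes, and Mx1 (3.04, SE 1.29, adjusted p = 0.140) was called with the block (adjusted p = 0.0334).

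Receptors and adaptors that SOCS proteins bind gave few calls: 0 of 8 in granuloma, 1 rose and 2 fell of 8 in Spalax fibrosarcoma, and 1 rose and 2 fell of 9 in mouse. On the deposited scale Insr, the insulin receptor, fell by 1.85 and 2.09 in the fibrosarcomas of Spalax and mouse and Irs2, its substrate, by 1.05 and 1.43, of which total-read scaling kept the call of Insr in mouse alone. With the block Insr was called in both and Irs2 in neither (adjusted p = 0.0797 and 0.0591). Kit rose in Spalax fibrosarcoma by 1.78 (SE 0.49, limma, adjusted p = 0.0498), a call lost with the block (adjusted p = 0.0867), and Egfr in mouse by 1.80 (SE 0.25). Of 9 genes of the glucocorticoid and fasting response, 5, 4 and 6 fell and 0 rose. Trim63 and Fbxo32, ubiquitin ligases of muscle wasting, Pdk4, a fasting enzyme, and Klf15, a glucocorticoid-induced factor, fell in all 3 by at least 3.72 on the log2 scale, though the granuloma change of Klf15 was not called under total-read scaling (adjusted p = 0.0554).

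By Pearson correlation of log2 values over the 16 Spalax libraries, the named genes most like Cish were Mcm7 (r = 0.883), Topbp1 and Bach1, and over the 9 mouse libraries Clec2d (r = 0.966), Pigu and Mad2l2. For Socs1 they were Tmem98 (r = 0.976), Ttyh2 and Tnfaip8 in Spalax and Myg1 (r = 0.961), Acd and Esyt3 in mouse. For Socs2 they were Rttn (r = 0.921), Sbf2 and Syne3, and Zfp639 (r = 0.955), Zfp653 and Psmd9. Socs3 was nearest to Myc (r = 0.947), Hp and Ggt1 in Spalax and to Nup35 (r = 0.953), Bend5 and Dpysl2 in mouse. No gene was among the nearest of the same member in both species.

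Socs4 was nearest to Ikbkg (r = 0.918), Zbtb41 and Ankrd12 in Spalax and to Pak2 (r = 0.983), Cmip and Gpnmb in mouse, and Socs5 to Jam3 (r = 0.904), Il1rl2 and Prelid1 and to Tmem184b (r = 0.987), Invs and Ypel4. Socs6 was nearest to Dpp8 (r = 0.860), Mtdh and Dennd1b and to Gpr19 (r = 0.934), Fam204a and Maff. Socs7 was nearest to Nploc4 (r = 0.966), Zcchc2 and Zxdc and to Tln2 (r = 0.992), Otud6b and Zkscan5. These correlations are descriptions over libraries of few groups, which share tissue type and animals, and they were picked as the highest of 13256 genes in Spalax and 14490 in mouse.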

How the data were processed

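RNA-Seq was taken from 25 libraries of neck muscle and tumor. Per the labels and methods, the authors trimmed single-end reads of strand-specific libraries with Trimmomatic, mapped them with TopHat (the submitters' processing notes name version 1.4.1), to the Spalax genome or to mouse GRCm38, and counted reads with htseq-count. The strand setting is not given in the sources used here. The deposited values are a signal: the authors had scaled the read counts of each library with its own size factor. In every library 100% of values were whole multiples of 1 read within 0.001, so whole reads were recovered. In Spalax gene names a comma stood for a lower-case t, in 2387 names. Because of the name pieces these commas leave, values were read from the line end.

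The members and lists were chosen with earlier results of these data known. Values as log2(value + 1) were fitted with limma 3.58.1 in R 4.3.3 (lmFit, eBayes with trend), on genes that reached a value of 10 in a number of libraries no lower than the size of the smaller group, using only the groups compared and no covariates, and adjusted over all genes tested. Fold changes understate those of low genes. The count tests of edgeR 4.0.16 and DESeq2 1.42.0 on recovered reads, total-read scaling, a pseudocount of 0.1, no filter, a model over all libraries, the animal as a block and leaving out each library were alternatives. DESeq2 without granuloma UIS 976 was added after seeing the data. Fits were tested on simulated data. The animal number comes from the labels. Same-animal deviations correlated by 0.0092 in granuloma, -0.0019 in Spalax fibrosarcoma and 0.0469 to 0.178 in mouse, over genes. No replicates were copies, with a chi-square per degree of freedom of at least 45.0. Intervals from counting do not cover variation between animals, and reads carry no molecular identifiers. Up to 4 genes per list are named, those with the largest change among the called in the IS against UIS comparisons, and up to 3 like genes per member, without provisional symbols. The cytokine ligands that fell are named beyond this rule, after their values were seen. Exon lengths and gene positions are from GENCODE vM21. No position is given for Socs6.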

Additional observations from a re-analysis of the deposited data

Results flagged for a closer look

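Among the groups of 4 Spalax libraries, 24 gene and group combinations were looked at for a library far from the other 3, by the gap to its nearest neighbour over the range of the group, against Dixon's limit for 4 samples, and 4 passed it. That limit flags about 5% of groups by chance if values are normally distributed within 1 population. Gaps were taken on untransformed values, and tumor-bearing UIS pools granuloma and fibrosarcoma animals, so the count of 4 cannot be held against 5%. Cish in tumor-bearing UIS had a gap of 0.845 of the range, with granuloma UIS 976 as the highest library at 2946, and Socs3 in the same 4 libraries had 0.894, with granuloma UIS 600 as the highest at 1688. Socs3 in tolerant animals had 0.914, with animal 2251 as the highest at 959. Socs4 in controls had 0.899, with animal 2095 as the lowest at 68.6.

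The IS against UIS change of Cish differed between Spalax and mouse fibrosarcoma by 4.47 on the log2 scale (limma interaction term, adjusted p = 0.0435), higher in 2 of 2 Spalax tumors and lower in 3 of 3 mouse tumors than in the uninjected side of the same animal. The 2 species were mapped and normalised separately.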

How the results depend on the processing

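Of 863 recomputed log2 changes of the 8 genes, 725 kept their sign and their side of the threshold, 48 lost a call, 46 gained one and 44 changed sign. Where leaving out a library left 1 sample in a group, it was assumed to vary like the others.

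The number of the 8 genes called moved as follows. Between control and tumor-bearing UIS it was 0, with 2 by DESeq2 and 3 by DESeq2 without granuloma UIS 976, a setting chosen after seeing the data. In granuloma it was 2, with 0 by edgeR (Socs1 at an adjusted p of 0.0515), 5 with DESeq2 (36.5% of all genes called), 1 with a pseudocount of 0.1 (22.2%), 0 without a filter (13.0%), 5 in the model over all libraries (42.9%) and 0 to 0 on leaving out single libraries. In Spalax fibrosarcoma it was 3, with 6 by DESeq2 (43.3% of all genes called), 6 under total-read scaling (46.3%), 5 in the model over all libraries (40.4%; Cish not among them) and 0 to 7 on leaving out libraries. In mouse it was 4 (45.1% of all genes called), with 3 by edgeR, without Socs1 (43.2%), and 5 by DESeq2 (53.7%). There it was 5 under total-read scaling (61.0%), 6 in the model over all libraries (53.7%) and 0 to 4 on leaving out libraries. The difference between fibrosarcoma and granuloma went from 0 to 1 with DESeq2, and 0 by DESeq2 without granuloma UIS 976. The difference between Spalax and mouse went from 1 (4.55% of all genes called) to 0 with edgeR (3.05%) and 2 with DESeq2 (14.8%). It was 0 under total-read scaling (4.73%) and 0 to 1 on leaving out 1 mouse library. With the animal as a replicate block, the paired fit called 2 in granuloma, 5 in Spalax fibrosarcoma, 6 in mouse, 0 for fibrosarcoma against granuloma and 1 for Spalax against mouse. Beyond the calls given with the values above, the block changed no other call of the 8. The cause of these moves was not tested, apart from the fewer samples that leaving out a library gives.

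Signs that turned were of uncalled changes, except Socs6 in mouse tumors, which went to 0.81 under total-read scaling, as Socs2 there went to 0.34. In control against tumor-bearing UIS, DESeq2 without granuloma UIS 976 gave -0.10 for Socs2 and -0.26 for Socs4. In mouse control against UIS, Socs3 went to 0.31 with edgeR and 0.33 with DESeq2 and Socs7 to -0.067 under total-read scaling. In control against tolerant Spalax, Socs1 went to 0.30 with edgeR, 0.28 with DESeq2 and 0.12 under total-read scaling. In the difference between Spalax and mouse, Socs1 went to 0.71 with edgeR and 0.77 with DESeq2. On leaving out single libraries the log2 change ran, in control against tumor-bearing UIS, from -0.037 to 0.65 for Socs2 and from -0.36 to 0.44 for Socs4, in control against tolerant, from -0.44 to 0.28 for Socs1 and from -0.36 to 0.72 for Socs3, and in granuloma, from -0.63 to 1.43 for Socs2 and from -0.51 to 0.89 for Socs4. In mouse control against UIS it ran from -1.03 to 0.75 for Cish, -0.23 to 1.14 for Socs2, -0.68 to 0.73 for Socs3, -0.36 to 0.070 for Socs4 and -0.089 to 0.42 for Socs7. In the difference between fibrosarcoma and granuloma it ran from -0.015 to 2.16 for Socs3 and -0.51 to 0.66 for Socs6, and in that between Spalax and mouse from -1.28 to 0.68 for Socs1 and -0.54 to 1.44 for Socs3.

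The depth limits Socs1 most, since it rested on 1 to 85 reads outside the tumors.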
